A study of Mus musculus with 4 samples.

Results

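Pericytes of mouse heart grafts were defined as cells with at least 1 unique molecular identifier (UMI, a counted transcript molecule) of *Kcnj8* and of *Abcc9*, at least 3 UMIs of *Rgs5*, under 3 UMIs of *Myh11* and none of *Ptprc*. Only cells with over 200 detected genes and under 20% of UMIs from mitochondrial genes were considered. The members were thus chosen by measured values. The rule selected 1197 of the 53824 deposited cells, or 2.68% (95% interval 2.53 to 2.84) of the 44626 cells that passed the limits on genes and mitochondrial UMIs. The levels of these 5 genes chose the cells and are given as a description only.

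The study profiled 4 heterotopic heart grafts by droplet-based 3′ single-cell RNA sequencing on day 5 after transplantation, 2 allogeneic grafts from BALB/c donors (labelled Balb/C) and 2 syngeneic grafts from C57BL/6J donors. Every graft was placed in the abdomen of a C57BL/6J recipient, all mice were males of 8 to 10 weeks, and no gene deletion, transgene or drug is described for any group. The grafts were minced and digested with collagenases, dispase and DNase, red blood cells were lysed, and no sort of the cells is described. The matrix is merged, and its barcodes end in suffixes 1 to 4, called libraries 1 to 4 here. No source used here pairs a suffix with a graft, so allogeneic and syngeneic pericytes were not compared, and donor and recipient cells were not told apart. The libraries were therefore treated as parts of 1 pooled sample and not as replicates. No test was run, and a 2-fold difference is used as a size. Levels are given as CPM, the UMIs of a gene per 1000000 UMIs summed over a class of cells after mitochondrial genes were removed. Their 95% intervals are exact Poisson intervals, those of cell shares are Clopper-Pearson, and both kinds cover counting error only.

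Pericytes are mural cells that wrap capillaries inside the basement membrane they share with the endothelium. In the heart they are marked by an ATP-sensitive potassium channel, made of the pore subunit *Kcnj8* and the sulfonylurea receptor *Abcc9*, and by *Rgs5*, a regulator of G protein signaling. Endothelial *Pdgfb* acts on the pericyte receptor *Pdgfrb*, and *Notch3* signaling maintains mural cells. Smooth muscle cells, the mural cells of arteries and arterioles, carry far more contractile filament protein.

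The 1197 pericytes comprised 420 cells of library 1, 305 of library 2, 450 of library 3 and 22 of library 4. They made up 4.07%, 2.32%, 4.57% and 0.195% of the kept cells of libraries 1 to 4. Library 4 stood apart with a share below the interval of every other library and with the deepest pericytes, at a median of 20645 UMIs against 5622, 8289 and 8894.5 in libraries 1 to 3. Macrophages (cells with *Ptprc*, *Csf1r* and at least 3 UMIs of *C1qa*) made up 25.4% of library 4 and at most 7.28% of the other libraries, and only 12 smooth muscle cells were found in it. Without library 4, pericytes made up 3.53% of kept cells. The 4 libraries shared 308 barcode sequences in pairs. Of the pericytes, 9 had a barcode sequence that another library also held, and none of their counterparts was a pericyte.

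Of the marker genes that the rule did not use, some were highest in pericytes and others were shared with smooth muscle cells or higher there. *Vtn*, which encodes the matrix and plasma protein vitronectin, was at 443 CPM (432 to 454) in pericytes, 90.2 CPM in smooth muscle cells (at least 3 UMIs each of *Myh11*, *Acta2* and *Tagln*), 1.68 CPM in endothelial cells, 1.99 CPM in fibroblasts and 0.424 CPM in macrophages. A *Vtn* UMI was found in 79.4% of pericytes (77.0 to 81.7), against 29.99% of smooth muscle cells and 1.08% of endothelial cells. The median depths of these classes were 7615, 11449 and 5414 UMIs. With each cell thinned to 2000 UMIs, which left out 83 pericytes, the shares were 53.8%, 10.5% and 0.425%. *Pdgfrb*, the receptor for endothelial PDGF-B, was at 691 CPM in pericytes, 392 CPM in smooth muscle cells, 153 CPM in fibroblasts and 8.31 CPM in endothelial cells. *Cspg4*, the NG2 proteoglycan, was at 147 CPM in pericytes and 239 CPM in smooth muscle cells, and *Notch3* was at 336 CPM and 528 CPM. In endothelial cells, fibroblasts and macrophages *Cspg4* was at most at 7.13 CPM and *Notch3* at 14.95 CPM. Without *Kcnj8*, *Abcc9* and *Rgs5*, which chose the cells, 5 of the 22 other genes of the pericyte marker list (*Vtn*, *Colec11*, *Steap4*, *P2ry14* and *Art3*) were at least 2-fold higher in pericytes than in smooth muscle cells. The median log2 fold of the 22 genes was 0.12, against 0.09 for all genes tested. Of the genes in the rule, *Kcnj8* was at 676 CPM, *Abcc9* at 768 CPM and *Rgs5* at 4387 CPM in pericytes, and *Rgs5* was as high in smooth muscle cells, at 4483 CPM.

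**Figure D1:**
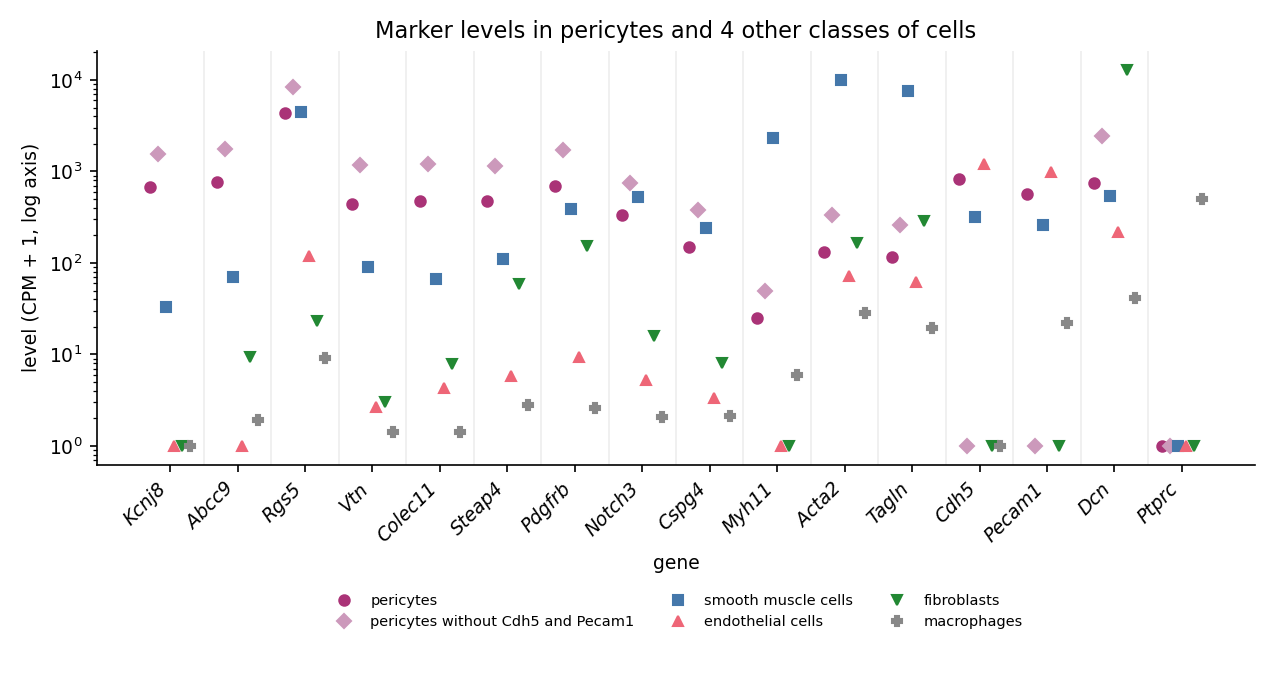
Levels of 16 marker genes (CPM plus 1, log axis) in all pericytes, in pericytes without a UMI of Cdh5 or Pecam1 and in 4 other classes of cells; each point is the pooled level of a class. Pericytes shared Rgs5, Notch3 and Cspg4 with smooth muscle cells, were the highest of the 5 classes for Vtn, Colec11 and Steap4, and carried Cdh5 at 825 CPM.

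At the edge of the rule the cells were less clearly pericytes. The 35 members with only 3 or 4 UMIs of *Rgs5* had *Vtn* at 38.0 CPM and the fibroblast gene *Dcn* at 6363 CPM, and the 73 cells just outside, with 1 or 2 UMIs of *Rgs5*, had *Vtn* at 51.2 CPM and *Dcn* at 15458 CPM. The *Myh11* limit cut through cells that differed less. The 275 members with 1 or 2 UMIs of *Myh11* had *Vtn* at 460 CPM and *Acta2* at 161 CPM, and the 61 cells just outside, with 3 or 4 UMIs, had *Vtn* at 383 CPM and *Acta2* at 370 CPM. Of cells that met all other terms, 157 lacked *Abcc9*, with *Vtn* at 36.0 CPM, 466 lacked *Kcnj8*, with *Vtn* at 60.4 CPM, and 101 had a *Ptprc* UMI, with *Vtn* at 192 CPM.

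Most of the pericytes carried endothelial transcripts. A UMI of *Cdh5* (VE-cadherin) or *Pecam1*, both adhesion molecules of endothelial junctions, was found in 758 of the 1197 pericytes, or 63.3% (60.5 to 66.1). The share was 55.7% in library 1, 69.8% in library 2, 66.0% in library 3 and 63.6% in library 4. The 758 cells had a median of 13029 UMIs and gave 2.49% of their UMIs to 12 endothelial genes, and the other 439 cells had a median of 3893 UMIs and gave 0.299%. *Fabp4*, the fatty acid binding protein of capillary endothelium and the most abundant endothelial transcript, was at 12991 CPM in pericytes, 20958 CPM in endothelial cells (a UMI each of *Cdh5* and *Pecam1*), 5825 CPM in smooth muscle cells and 255 CPM in fibroblasts. In the 439 pericytes without *Cdh5* and *Pecam1* it was at 2492 CPM. All 12 genes of the endothelial list were detected in pericytes, among them *Gpihbp1*, *Cldn5*, *Emcn* and *Kdr*. *Cdh5* and *Pecam1* are themselves 2 of the 12 genes, and a UMI of either is more likely to be found in a deeper cell, so the split fixes part of both gaps. The other 10 genes took 2.32% and 0.299% of UMIs on its 2 sides. Without that split, they took 0.562% of UMIs in the 399 shallowest pericytes, 1.52% in the next 399 and 2.33% in the 399 deepest. Whether these barcodes held a pericyte and an endothelial cell together was not tested. A simulation of doublets marked 13.2% of pericytes, against 5% of all kept cells, and 2.28% of the 439 pericytes without *Cdh5* and *Pecam1*.

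**Figure D2:**
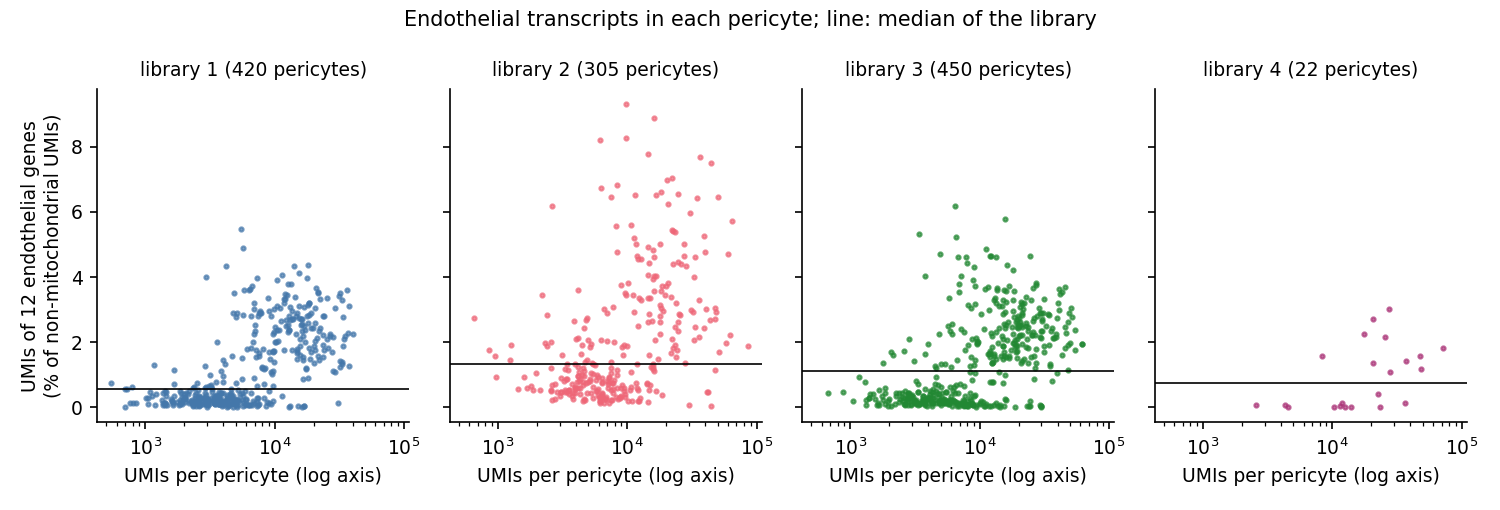
Each point is a pericyte, with its UMIs on a log axis and the percentage of its non-mitochondrial UMIs that came from 12 endothelial genes; horizontal lines are library medians (0.547%, 1.32%, 1.12% and 0.758% in libraries 1 to 4). In each library the cells above 2% (390 in all) lay mostly among the deeper cells, beside a group of shallower cells near the bottom of the axis.

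Pericyte transcripts took a larger share of UMIs in the 439 cells without *Cdh5* and *Pecam1*. *Vtn* was at 1188 CPM in them and 304 CPM in the 758 others, *Pdgfrb* at 1710 CPM and 501 CPM, and *Colec11* at 1208 CPM and 337 CPM. These 3 genes were 3.91, 3.42 and 3.58 times higher without the endothelial transcripts. They are not in the rule, but its fixed UMI minimums admit shallow cells only where pericyte transcripts take a high share, and the 439 cells were the shallower ones, at a median of 3893 against 13029 UMIs. The 439 cells also had more mitochondrial UMIs, at a median of 9.11% against 5.74%, and more of the nuclear RNA *Malat1*, at 56082 against 27736 CPM, and the part of depth and RNA quality in these levels was not tested. *Dcn*, a proteoglycan gene of fibroblasts, was also higher in these cells, at 2430 CPM against 442 CPM. Results that follow are given for all pericytes and, where they differ, for the 439 cells without *Cdh5* and *Pecam1*.

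Genes highest in pericytes among the 5 classes were led, after *Kcnj8* and *Abcc9*, by *Colec11*, *Vtn* and *Steap4*. *Colec11* encodes a secreted collectin that binds sugars on microbes, and was at 656, 108, 643 and 21.7 CPM in the pericytes of libraries 1 to 4. Its level in all pericytes, 474 CPM (463 to 486), was 6.42-fold that of smooth muscle cells, the next class, with 10 CPM added to both. *Steap4*, a metalloreductase, was at 529, 425, 500 and 63.0 CPM in libraries 1 to 4 and 4.04-fold above smooth muscle cells over all libraries. Both genes, and *Vtn* at 636, 211, 506 and 86.7 CPM, were lowest in library 4, and each was higher in pericytes than in the 4 other classes within each of the 4 libraries. Further genes by the fold over the highest other class included *Vstm4*, the ectoenzyme gene *Art3*, the sodium-potassium-chloride cotransporter *Slc12a2*, the septin *Sept4*, *Eps8*, the carboxypeptidase *Cpm* and the endothelin receptor *Ednrb*, at 3.04-fold down to 2.15-fold. *Tnfrsf21*, *Rem1* and *Sele* followed. *Sele* encodes E-selectin, a leukocyte adhesion receptor of activated endothelium, and was at 50.5 CPM in pericytes and 19.0 CPM in endothelial cells. In the 439 pericytes without *Cdh5* and *Pecam1*, *Sele* was at 90.05 CPM.

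Pericytes and smooth muscle cells differed most in the contractile apparatus, on genes of which both classes were cut. Of 9191 genes with at least 10 CPM in either class, 368 (4%) were at least 2-fold lower and 323 (3.51%) at least 2-fold higher in pericytes, and the median log2 fold of all genes tested was 0.09. Markers of other cells were among the higher genes, 11 of 12 endothelial genes (with a median log2 fold of 1.18) and 5 of 5 erythroid genes (median 2.98). The endothelial list was at 21418 CPM in pericytes and 9336 CPM in smooth muscle cells, and the erythroid list at 7290 and 918 CPM. Their part in the other higher genes was not tested. All 17 contractile genes were at least 2-fold lower, with a median log2 fold of -4.07; *Myh11*, *Acta2* and *Tagln* had chosen the smooth muscle cells, and *Myh11* had also limited the pericytes. Without these 3 genes, 14 of 14 were lower, with a median log2 fold of -3.12. The 14 genes belong to the same contractile list, and how far the choice of cells by the 3 genes fixed their gap was not tested. *Acta2* (smooth muscle actin) was at 59.7, 173, 116 and 510 CPM in pericytes of libraries 1 to 4 and at 7718, 11744, 10190 and 6920 CPM in smooth muscle cells of the same libraries. Over all libraries *Acta2* was 71.1-fold lower in pericytes, a gap that the choice of the smooth muscle cells fixes in part. An *Acta2* UMI was found in 46.6% of pericytes but also in 34.7% of endothelial cells and 44.99% of fibroblasts. Among the contractile genes not themselves in a rule, *Myl9* (regulatory myosin light chain) was at 79.2 CPM in pericytes and 2588 CPM in smooth muscle cells, *Tpm2* (tropomyosin) at 223 and 3893 CPM, *Lmod1* (leiomodin, which nucleates actin filaments) at 11.7 and 552 CPM, and *Cnn1* (calponin) at 2.02 and 260 CPM. *Des* (desmin) and *Mylk* (myosin light chain kinase) differed less, at 188 against 823 CPM and 166 against 1413 CPM. *Myocd*, the coactivator of smooth muscle genes, was at 0.627 CPM against 61.0 CPM. *Itih4*, *Sorbs2*, *Palld*, *Nrip2*, *Perp* and *Map3k7cl*, outside the contractile list, were also among the 15 genes furthest below smooth muscle cells.

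Cells without *Cdh5* and *Pecam1* were compared in the same way. Among these 439 pericytes and 469 smooth muscle cells, 665 of 9515 genes (6.99%) were at least 2-fold higher and 479 (5.03%) at least 2-fold lower in pericytes, around a median log2 fold of 0.21 for all genes tested. Of the genes called in all cells, 182 of the 323 higher and 311 of the 368 lower genes were called again. The contractile list had 16 of 17 genes lower, all but *Casq2*, or 13 of the 14 that chose no cells. Of the 22 pericyte list genes outside the rule, 12 were higher, with a median log2 fold of 1.03, against 5 in all cells. *Vtn* was 10.6-fold higher than in smooth muscle cells (1188 against 103 CPM), *Colec11* 12.3-fold and *Steap4* 12.5-fold. Further genes past 5-fold were *Col5a3*, *Prg4*, *Mmp3*, *G0s2*, *Ifitm1*, *Abca8a*, *Cygb* (cytoglobin), *Art3* and *Tnfrsf21*. Of these, *Cygb* was at 1352 against 157 CPM. Among all pericytes, *Prg4* and *Mmp3* were far higher in library 2 than in the other libraries. Some fibroblast genes were higher too, 7 of 11 in that list (*Dcn*, *Col1a1*, *Col3a1*, *Lum*, *Dpt*, *Tcf21* and *Mfap5*), whereas none of the 11 reached 2-fold in all cells. Granulocyte genes were also higher, 3 of 3 tested (*S100a8*, *S100a9* and *Retnlg*), as were 4 of 4 hemoglobin genes, with a median log2 fold of 2.77, and 4 of 9 endothelial genes (*Egfl7*, *Emcn*, *Cd36* and *Cldn5*). These pericytes were shallower than the smooth muscle cells, at medians of 3893 and 9239 UMIs. The part of RNA from other cells and of depth in these levels was not tested. *Pdgfra*, which was used to choose the fibroblasts, was at 29.3 CPM in these pericytes and 13.6 CPM in these smooth muscle cells.

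**Figure D3:**
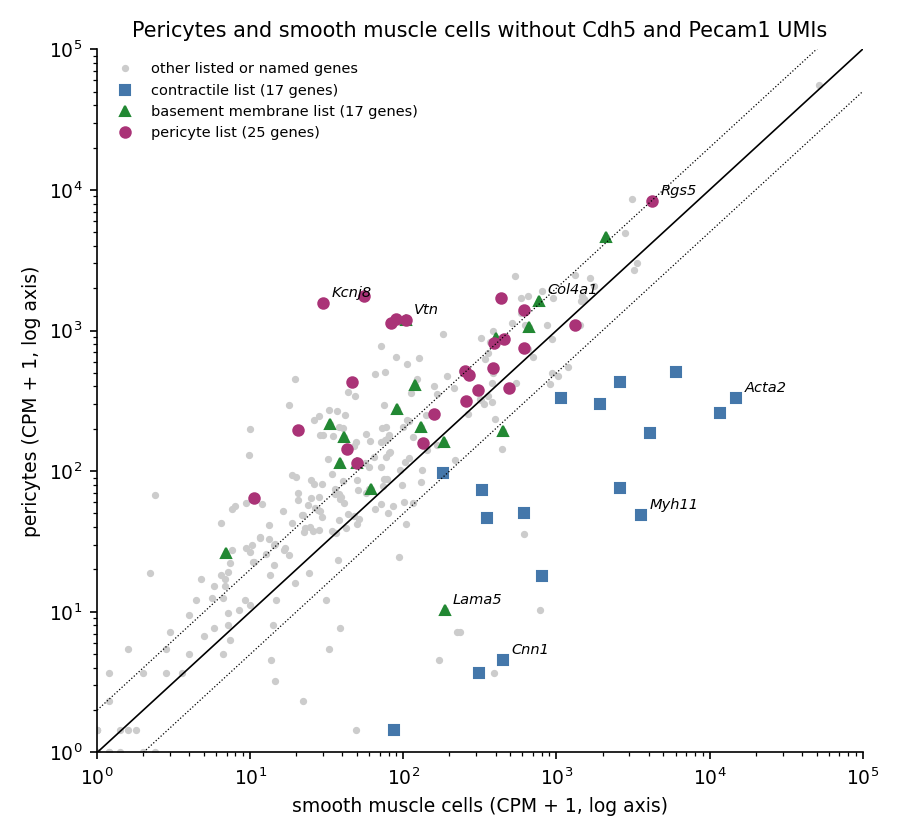
Levels in 469 smooth muscle cells (x axis) and 439 pericytes (y axis), both without Cdh5 and Pecam1 UMIs, in CPM plus 1 on log axes; the line marks equal levels and the dotted lines 2-fold differences. Of 17 contractile genes, 16 lie below the lower 2-fold line, all but Casq2, with Acta2 at 330 CPM in pericytes and 14898 CPM in smooth muscle cells. Of the basement membrane genes, 14 of 17 lie above the line of equal levels, all but Lama5, Lamb2 and Hspg2.

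Genes of vascular tone separated by role. Beside the channel genes of the rule, the genes at least 2-fold higher in pericytes were all receptors, and those at least 2-fold lower belonged to cyclic nucleotide signaling or were ion channels. *Ednrb*, a receptor for endothelin, was at 248, 706, 232 and 488 CPM in pericytes of libraries 1 to 4 and at 68.7, 173, 70.9 and 472 CPM in smooth muscle cells. It was higher in pericytes in all 4 libraries, 3.13-fold over all cells, though the levels of library 4 lay close together. *Agtr1a*, the angiotensin II receptor, was at 28.9 CPM (26.1 to 31.8) against 1.10 CPM (0.616 to 1.81), and the adenosine receptor *Adora2a* at 38.6 against 13.1 CPM. *P2ry14*, a receptor for UDP-glucose, was at 75.5 against 20.7 CPM and was also found in macrophages, at 88.7 CPM. *Gucy1a1*, a subunit of the nitric oxide receptor guanylyl cyclase, was at 180 CPM in pericytes and 410 CPM in smooth muscle cells. The phosphodiesterase *Pde3a* was at 66.7 against 342 CPM, the cyclic GMP-dependent kinase *Prkg1* at 23.1 against 59.5 CPM, the calcium channel *Cacna1c* at 23.1 against 57.1 CPM and the potassium channel subunit *Kcnmb1* at 10.4 against 62.6 CPM. In all, 6 of the 22 vasoactive genes tested were at least 2-fold higher and 5 at least 2-fold lower, with a median log2 fold of 0.07, near that of all genes. Of all genes tested, 3.51% were higher and 4% lower. *Kcnj8* and *Abcc9*, which chose the cells, are 2 of the higher vasoactive genes and part of the median, and their calls are no finding. In cells without *Cdh5* and *Pecam1*, the counts, which again include these 2 genes, were 11 and 3, against 6.99% and 5.03% of all genes. *Gucy1a1*, *Prkg1* and *Cacna1c* were no longer 2-fold lower there, *Kcna5* was added to the lower genes, and the genes added to the higher ones included *Ednra*, *Avpr1a*, *Ptger4* and *Ptgir*. The alpha-adrenergic receptors *Adra1a* and *Adra2a* were at 0.0697 and 0.139 CPM in pericytes.

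Basement membrane genes were mostly higher in pericytes than in smooth muscle cells. *Col4a1*, the main collagen IV chain, was at 862, 2472, 2612 and 2242 CPM in pericytes of libraries 1 to 4 and at 311, 1121, 1274 and 1231 CPM in smooth muscle cells. It was lowest in library 1 in both classes and higher in pericytes in each library. Of all genes tested, 3.51% were at least 2-fold higher in pericytes and 4% lower. Of the 17 genes in the list, 10 were at least 2-fold higher (*Col4a1*, *Col4a2*, *Lama2*, *Lama4*, *Lamb1*, *Nid1*, *Nid2*, *Hspg2*, *Vtn* and *Col15a1*) and 2 lower (*Lama5* and *Lamb2*), with a median log2 fold of 1.03. The endothelial list moved with them, 11 of 12 genes higher, and its part was not tested. Endothelial cells held similar levels of several of these genes, with *Col4a1* at 2257 CPM and *Hspg2* (perlecan) at 780 CPM. In pericytes without *Cdh5* and *Pecam1*, *Hspg2* did not reach 2-fold, at 161 CPM against 183 CPM in smooth muscle cells, while *Col4a1* stayed 2.12-fold higher at 1632 against 765 CPM, *Lama2* was 5.41-fold higher and *Nid1* (nidogen) 3.26-fold. *Lama2*, a laminin chain of muscle and mural cells, was at 4.45 CPM in endothelial cells. *Lama5*, the laminin chain of mature arterial and endothelial basement membranes, was at 44.1 CPM in all pericytes and 9.32 CPM without *Cdh5* and *Pecam1*, against 154 CPM in smooth muscle cells. The whole list took 11341 CPM in all pericytes and 11371 CPM in those without *Cdh5* and *Pecam1*.

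Genes of the signaling between pericytes and endothelium followed the endothelial transcripts in part. Of 17 genes tested, with a median log2 fold of 0.19, only *Gja1* (connexin 43) passed 2-fold over smooth muscle cells, at 261 against 79.7 CPM, and it was at 26.6 CPM in pericytes without *Cdh5* and *Pecam1*. The endothelial ligand *Pdgfb* was at 145 CPM in all pericytes and 15.1 CPM in those cells, and *Tek*, the angiopoietin receptor, at 83.2 and 14.2 CPM. The mural genes moved the other way, with *Gja4* (connexin 37) at 238 and 481 CPM and *S1pr3*, a sphingosine phosphate receptor, at 148 and 299 CPM. *Angpt1*, a pericyte ligand for *Tek*, was at 3.07 CPM in all pericytes and 25.1 CPM in fibroblasts. Between cells without *Cdh5* and *Pecam1*, 5 of 18 genes were at least 2-fold higher in pericytes (*Pdgfrb*, *Tgfb1*, *Eng*, *Cdh2* and *Gja1*), against 6.99% of all genes tested.

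Inflammatory and stress genes were detected in pericytes, and some inflammatory genes were higher there than in smooth muscle cells. The chemokine *Cxcl12*, which binds *Cxcr4* on leukocytes, was at 950 CPM in pericytes, 328 CPM in smooth muscle cells and 1092 CPM in endothelial cells. In cells without *Cdh5* and *Pecam1* it was at 451 CPM in pericytes and 122 CPM in smooth muscle cells, 3.50-fold higher. *Cxcl1*, which recruits neutrophils, was at 861 CPM, *Ccl2*, which recruits monocytes, was at 374 CPM, and the cytokine gene *Il6* was at 285 CPM. None of these 3 was 2-fold from smooth muscle cells, at 1277, 305 and 264 CPM. *Vcam1*, a leukocyte adhesion receptor, was at 99.8 against 42.9 CPM, and the eosinophil attractant *Ccl11* at 83.1 against 14.3 CPM. Those genes and *Cxcl12* made up the 3 of 14 recruitment genes at least 2-fold higher, against 3.51% of all genes tested. Without library 4 the count was 2 of 14, since *Vcam1* was at 82.8 against 37.1 CPM, just under 2-fold. In cells without *Cdh5* and *Pecam1* it was 5 of 15 (*Icam1*, *Vcam1*, *Ccl11*, *Cxcl12* and *Cxcl16*), against 6.99% of all genes tested. Without library 4 it was 6 of 14 in such cells (*Ccl2* added). Of 24 interferon genes, 9 were at least 2-fold higher than in smooth muscle cells (*Irf7*, *Gbp4*, *Gbp7*, *Iigp1*, *Rsad2*, *Bst2*, *Ubd*, *Cxcl9* and *Cxcl10*), as were 5 of 11 MHC class I genes, and none was 2-fold lower. Beside them, 11 of 12 endothelial and 5 of 5 erythroid genes were higher in the same comparison, as were 3.51% of all genes tested. The 22 cells of library 4 gave all 403 UMIs of *Ubd*, 71.5% of those of *Cxcl9* and 64.1% of those of *Gbp4*. With library 4 left out of both classes, 9 of 22 interferon genes (*Ifit1* added, *Ubd* and *Gbp6* no longer tested) and 6 of 11 MHC class I genes were at least 2-fold higher, with *Cxcl9* at 117 against 13.3 CPM, *Gbp4* at 54.4 against 19.96 CPM and *Iigp1* at 593 against 167 CPM. In cells without *Cdh5* and *Pecam1* the counts were 4 of 23 and 5 of 11, against 6.99% of all genes tested. *Iigp1*, at 252 CPM in these pericytes against 647 CPM in all, was no longer among the higher genes. Without library 4 those counts were 5 of 20 (*Stat2*, *Gbp7*, *Iigp1*, *Oasl2* and *Bst2*) and 7 of 11. Of the 4 interferon genes called in such cells of all libraries (*Bst2*, *Ubd*, *Cxcl9* and *Cxcl10*), only *Bst2* was called again without library 4. *Iigp1* was then at 136 against 36.0 CPM, *Cxcl10* at 54.2 against 44.3 CPM and *Cxcl9* at 6.08 against 2.08 CPM. Hypoxia-linked *Ndufa4l2*, *Cox4i2* and *Higd1b*, which mark mural cells, were at 622, 372 and 221 CPM and within 2-fold of smooth muscle cells. No stress gene of 14 and no cell cycle gene of 10 passed 2-fold in either direction, and of 12 immediate-early genes *Nr4a1* was lower, at 464 against 1111 CPM. Immediate-early genes together took 2.06% of pericyte UMIs, led by *Junb* at 3734 CPM. In cells without *Cdh5* and *Pecam1*, 6 of 14 stress and hypoxia genes were at least 2-fold higher in pericytes (*Mt2*, *Ndufa4l2*, *Cox4i2*, *Higd1b*, *Hspa1a* and *Hspa1b*), and 4 of 10 cell cycle genes were lower. Of all genes tested between such cells, 6.99% were higher and 5.03% lower.

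Among single pericytes thinned to 2000 UMIs, the genes with the largest variance relative to the mean were the hemoglobin genes *Hbb-bs*, *Hba-a1*, *Hba-a2* and *Hbb-bt*, the nuclear RNA *Malat1*, *Dcn*, *S100a8*, *S100a9*, *Fabp4*, *Mt1*, *Mgp* and *Gsn*. Several are known as markers of other cells, hemoglobin of red cells, *S100a8* and *S100a9* of granulocytes, *Fabp4* of endothelium, and *Dcn* and *Gsn* of fibroblasts. The source of these transcripts in the pericytes was not tested. Hemoglobin reads can be split among near-identical copies, so single hemoglobin genes are uncertain. The erythroid list took 7290 CPM in all pericytes, with a single cell holding 42.1% of these UMIs in library 2 and 23.1% in library 1, and 1308 CPM in the cells without *Cdh5* and *Pecam1*. *Malat1* was at 32192 CPM in all pericytes and 56082 CPM in the 439 shallower cells. Macrophage markers were low, at 214 CPM for the list, with *Lyz2* highest at 82.3 CPM and *Ptprc* at 0 by the rule. The list of T and NK cell markers took 16.03 CPM and was led by *Trac*, with *Cd8a* at 0, the B cell list 2.23 CPM, led by *Cd79a*, and the Schwann cell list 17.0 CPM, led by *Cnp*.

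Pericytes of the 4 libraries were then set side by side over the 9678 genes with at least 10 CPM in the pericytes of 1 library or more. A gene was counted for a library when its level there was at least 2-fold that of each other library. This held for 52 genes (0.537%) of library 1, 62 genes (0.641%) of library 2, 58 genes (0.599%) of library 3 and 236 genes (2.44%) of library 4. A count of 3 UMIs equals 0.790, 0.746, 0.499 and 5.91 CPM in libraries 1 to 4, so low levels are least certain in library 4.

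**Figure D4:**
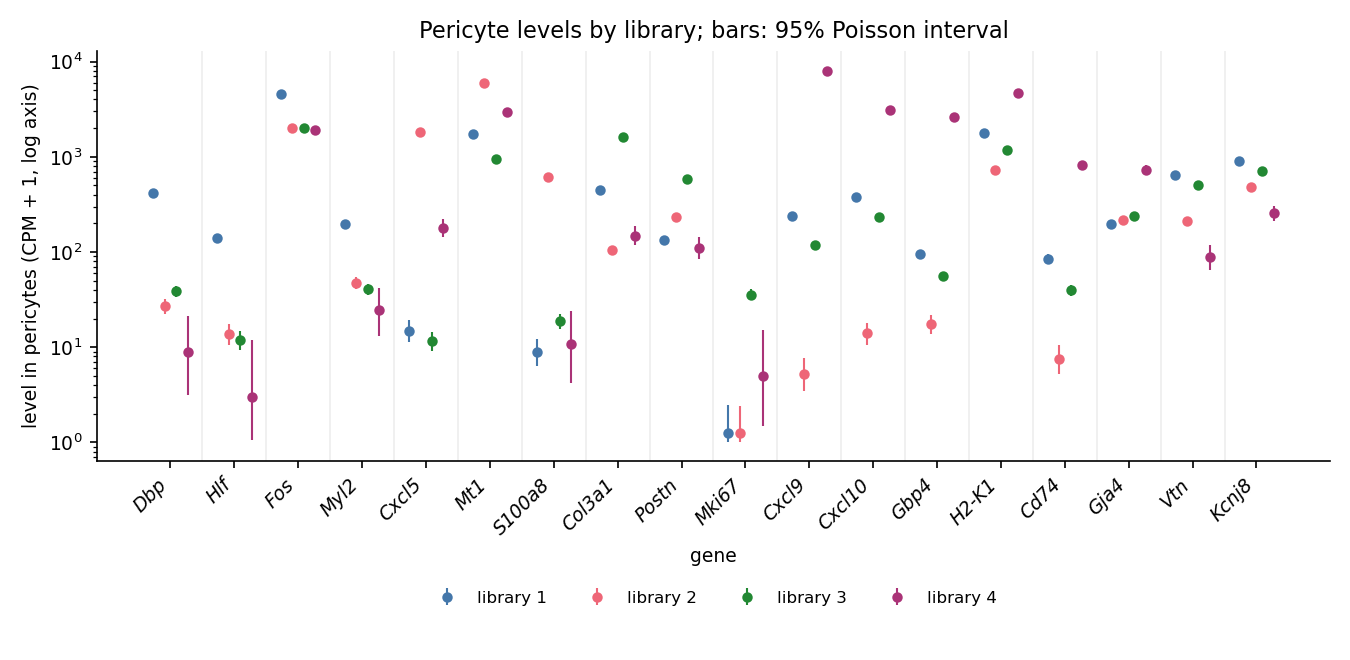
Levels of 18 genes in the pericytes of libraries 1 to 4, in CPM plus 1 on a log axis, with exact Poisson 95% intervals. Dbp and Hlf stand highest in library 1, Cxcl5, Mt1 and S100a8 in library 2, Col3a1, Postn and Mki67 in library 3, and Cxcl9, Cxcl10, Gbp4, H2-K1, Cd74 and Gja4 in library 4, where Vtn and Kcnj8 are lowest.

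Library 1 pericytes were highest in immediate-early genes, and their 8 leading genes included *Dbp*, *Hlf*, *Tef* and *Per3*. These 4 genes, known from the circadian clock, were chosen for being highest there, and no list of clock genes was examined. *Dbp*, a transcription factor whose level follows the clock, was at 415, 25.9, 37.7 and 7.88 CPM in pericytes of libraries 1 to 4. The other PAR-domain factors *Hlf* (140, 12.7, 10.8 and 1.97 CPM) and *Tef* (137, 28.6, 24.8 and 9.85 CPM) and the clock gene *Per3* (77.6, 12.2, 12.3 and 13.8 CPM) were also highest in library 1, with the other 3 libraries far below it. Library 1 was also the highest for *Dbp* in the other classes, at 320 CPM in endothelial cells, 394 CPM in fibroblasts, 256 CPM in smooth muscle cells and 58.5 CPM in macrophages. All 12 immediate-early genes were highest in library 1, and *Fos*, *Fosb*, *Egr1* and *Atf3* passed 2-fold, with *Fos* at 4531, 2025, 2018 and 1893 CPM. Of all 9678 genes tested, 2974 were highest in library 1 and 0.537% passed 2-fold there. The median log2 fold of the immediate-early list over the highest other library was 0.80, against -0.18 for all genes tested. *Fos* was also highest in library 1 in each of the 4 other classes, at 3683 CPM in endothelial cells. Cardiomyocyte transcripts were also highest there, with 7 of 9 listed genes at least 2-fold highest in library 1, against 0.537% of all genes tested. The cardiomyocyte list was at 864, 189, 260 and 116 CPM in pericytes of libraries 1 to 4, led by *Myl2*. It was at 1416 CPM in library 1 endothelial cells, and the part of cardiomyocyte RNA in these levels was not tested. The interferon genes *Isg15* (391, 43.0, 103 and 114 CPM) and *Ifit1* were highest in library 1 as well, but in its pericytes without *Cdh5* and *Pecam1* *Isg15* was at 127 CPM, against 481 CPM in endothelial cells. The 250 bases before the RefSeq start of *Per3* (GRCm38.p6, chr4:151044666-151044915, minus strand) are shown because *Per3* moved with *Dbp*, *Hlf* and *Tef*, the factors known to bind the D-box. Capitals mark both matches to the D-box letters TTANNTAA, which start 205 and 158 bases before the start site.
Per3: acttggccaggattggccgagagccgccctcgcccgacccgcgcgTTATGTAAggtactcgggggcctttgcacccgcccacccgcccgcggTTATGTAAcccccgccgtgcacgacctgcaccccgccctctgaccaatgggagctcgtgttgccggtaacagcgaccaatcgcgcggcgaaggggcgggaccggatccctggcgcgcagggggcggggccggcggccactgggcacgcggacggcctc
On both strands, the letters TTANNTAA were found in the same window of 2 of the 8 leading genes of library 1 (*Per3* and *Tef*) and of 6.30% of the 27025 genes in the RefSeq table. The E-box letters CACGTG were found for 1 of the 8 (*Tef*) and for 6.86% of all genes. A match describes letters and no binding was measured.

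The leading genes of library 2 pericytes, chosen for being highest there, included *Cxcl5* and several granulocyte transcripts, and the metallothionein *Mt1* was also highest in library 2. *Cxcl5*, a neutrophil attractant, was at 13.9, 1829, 10.6 and 179 CPM in pericytes of libraries 1 to 4. In library 2 it was at 1988 CPM in the 92 pericytes without *Cdh5* and *Pecam1*, 5597 CPM in fibroblasts, 358 CPM in smooth muscle cells and 107 CPM in endothelial cells. *Cxcl2*, which acts on the same receptor, was at 154, 633, 244 and 94.6 CPM and was the only gene of 15 in the recruitment list at least 2-fold highest in library 2. *Cxcl1* was at 794, 1361, 589 and 636 CPM, 1.71-fold over the next library. *Mt1*, a metal-binding stress protein, was at 1723, 6015, 948 and 2949 CPM, and at 11973 CPM in library 2 pericytes without *Cdh5* and *Pecam1*. Only *Mt1* of the 14 stress and hypoxia genes passed 2-fold, and 9 of the 14 were highest in library 2. Of all 9678 genes tested, 0.641% passed 2-fold in library 2 and 2284 were highest there. *Mmp3*, a matrix metalloproteinase, and *Prg4*, lubricin, were at 111 and 306 CPM in library 2 and at most 7.48 and 39.9 CPM elsewhere. Both are also fibroblast transcripts there, with *Prg4* at 5693 CPM in library 2 fibroblasts. *Lcn2* (10.3, 565, 5.98 and 0 CPM), *S100a8* (7.90, 611, 17.8 and 9.85 CPM), *S100a9*, *Retnlg* and *Chil3* completed the 8 leading genes. The granulocyte list was at 22.6, 1434, 35.4 and 31.5 CPM in pericytes, led by *S100a9*, with *Cxcr2* at 1.95 CPM and *Csf3r* at 3.21 CPM over all libraries. In library 2 the same list was at 3307 CPM in endothelial cells, 5118 CPM in macrophages and 1135 CPM in smooth muscle cells, and the part of granulocyte RNA in these pericyte levels was not tested.

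Library 3 pericytes were highest in fibrillar matrix genes and in some cell cycle genes. *Col3a1*, a fibrillar collagen, was at 443, 103, 1618 and 148 CPM in pericytes of libraries 1 to 4, and *Col1a1* at 202, 43.0, 769 and 80.8 CPM. *Postn*, the matricellular protein periostin, was at 133, 231, 579 and 110 CPM. Of 15 genes of activated matrix, 7 were at least 2-fold highest in library 3 (these 3, *Col1a2*, *Col5a2*, *Cthrc1* and *Lox*), against 0.599% of all genes tested. The list had a median log2 fold of 0.92 over the highest other library, against -0.22 for all genes. *Mfap5*, *Cilp*, *Ltbp2* and *Comp*, matrix genes of fibroblasts, led the list of library 3. In its pericytes without *Cdh5* and *Pecam1*, *Col3a1* was at 3649 CPM and *Postn* at 1748 CPM. *Postn* exceeded smooth muscle cells in pericytes of all 4 libraries, and was at 370 CPM in smooth muscle cells and 4795 CPM in fibroblasts of library 3. Fibroblast markers moved with these genes. The fibroblast list was at 3548, 792, 5268 and 475 CPM in pericytes, led by *Gsn* in library 1, *Dcn* in library 2 and *Col3a1* in libraries 3 and 4, and a single pericyte held 9.92% of these UMIs in library 3. Fibroblasts made up 10.8% of kept cells in library 1 and 9.53% in library 3. In the pericytes of libraries 1 and 3, the fibroblast gene *Dcn* was at 1133 and 899 CPM and *Gsn* at 1147 and 540 CPM. The part of fibroblast RNA in the matrix genes was not tested. Of 11 cell cycle genes, 6 were at least 2-fold highest in library 3, against 0.599% of all genes tested. *Mki67* was at 0.263, 0.249, 34.7 and 3.94 CPM in libraries 1 to 4. Per cell, the median of the cell cycle list was 110, 135, 132 and 158 CPM in libraries 1 to 4, and a single cell held 9.26% of its UMIs in library 3. In the library 3 pericytes without *Cdh5* and *Pecam1*, *Mki67* was at 9.16 CPM, and library 3 endothelial cells had 62.2 CPM. *Mki67* was found in 3.01% of all pericytes.

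Library 4 pericytes differed most, in interferon-inducible genes and antigen presentation. *Cxcl9*, a chemokine that attracts T cells and is induced by interferon gamma, was at 236, 4.23, 117 and 8023 CPM in pericytes of libraries 1 to 4. Every pericyte of library 4 had a *Cxcl9* UMI, with a lowest level of 219, a median of 4833 and a highest of 19952 CPM among its 22 cells, and no other library had a median above 0. *Cxcl10*, a chemokine of the same receptor, was at 381, 12.9, 232 and 3126 CPM, and a single cell held 22.1% of its UMIs in library 4. The guanylate-binding protein *Gbp4* was at 94.8, 16.4, 54.4 and 2643 CPM and *Gbp2* at 153, 27.4, 89.8 and 1089 CPM. *Gbp2b*, a paralog of *Gbp2*, was at 1505 CPM (764 UMIs) in library 4 and without a UMI in the pericytes of libraries 1 to 3, at least 1906-fold higher than the level that 3 UMIs allow in any of them. Reads of this family can be split among near-identical copies. *Ubd*, a ubiquitin-like protein also called FAT10, was at 794 CPM (403 UMIs, in 13 of 22 cells) and had no UMI in the other libraries, at least 1005-fold higher. The part of mouse strain in the *Gbp2b* and *Ubd* levels was not tested. Of 24 interferon genes, 13 were at least 2-fold highest in library 4, against 2.44% of all genes tested. Their median log2 fold over the highest other library was 1.22, against -0.37 for all genes, where the median covers all 24 genes. The interferon list was at 5824, 859, 3468 and 23201 CPM in libraries 1 to 4. *Isg15*, *Ifit1*, *Irf1*, *Irf9*, *Rsad2* and *Bst2* were not highest there, with *Irf1* at 1264, 187, 639 and 636 CPM.

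**Figure D5:**
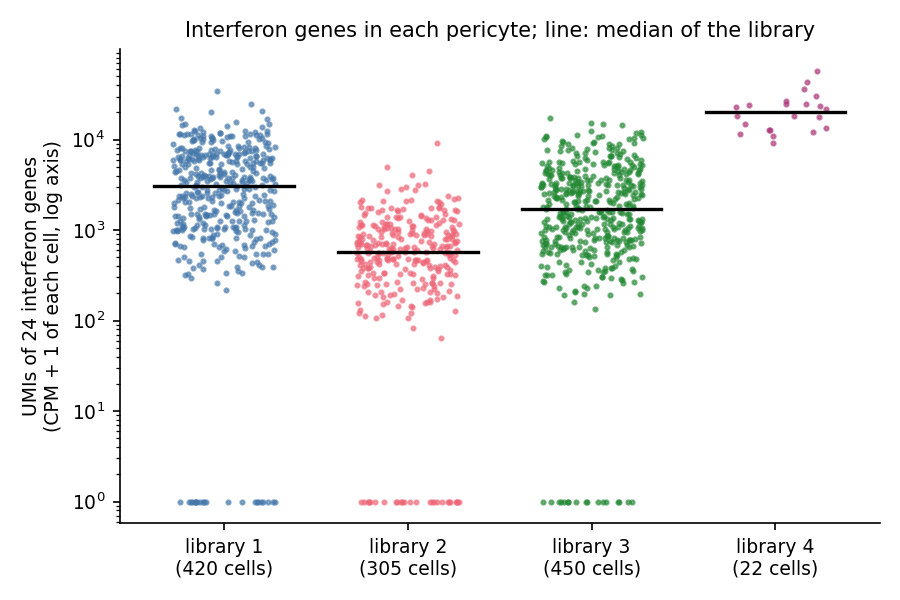
Summed level of 24 interferon genes in each pericyte, in CPM of that cell plus 1 on a log axis; each point is a cell and lines are medians (3041, 569, 1709 and 20155 CPM in libraries 1 to 4). The lowest of the 22 cells of library 4, at 9181 CPM, lies above the highest of library 2, at 9088 CPM, and inside the range of libraries 1 and 3.

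Promoters of 3 of the leading interferon genes are shown because their transcripts moved together in library 4. They are the 250 bases before the RefSeq start of *Cxcl9* (GRCm38.p6, chr5:92328080-92328329, minus strand), *Cxcl10* (chr5:92348890-92349139, minus strand) and *Ubd* (chr17:37193642-37193891, plus strand). Capitals mark a match to the interferon-stimulated response element (ISRE, the letters GAAA, any 2 bases, then GAAA again) or to the GAS letters TTCNNNGAA, elements that interferon-activated IRF and STAT factors are known to bind, searched on both strands.
Cxcl9: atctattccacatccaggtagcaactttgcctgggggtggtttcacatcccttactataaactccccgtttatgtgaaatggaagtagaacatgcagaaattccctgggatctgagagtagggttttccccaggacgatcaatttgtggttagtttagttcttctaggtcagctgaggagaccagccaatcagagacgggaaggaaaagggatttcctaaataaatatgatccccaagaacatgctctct
Cxcl10: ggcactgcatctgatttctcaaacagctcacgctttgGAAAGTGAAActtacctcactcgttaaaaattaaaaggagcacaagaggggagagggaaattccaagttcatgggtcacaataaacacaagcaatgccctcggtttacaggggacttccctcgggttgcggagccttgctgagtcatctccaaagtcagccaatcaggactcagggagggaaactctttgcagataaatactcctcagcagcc
Ubd: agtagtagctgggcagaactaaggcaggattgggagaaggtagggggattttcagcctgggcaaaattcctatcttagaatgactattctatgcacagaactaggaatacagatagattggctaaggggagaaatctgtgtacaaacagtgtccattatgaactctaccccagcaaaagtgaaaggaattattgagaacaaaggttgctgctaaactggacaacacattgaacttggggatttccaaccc
*Cxcl10* had a single match, an ISRE 213 bases before the start site, and the *Cxcl9* and *Ubd* windows held neither set of letters. Of 25 listed interferon genes, 19 were in the RefSeq table. ISRE letters were found for 12 of the 19 (63.2%), among them *Gbp2*, *Gbp3*, *Gbp7*, *Ifit1*, *Ifit3* and *Isg15*, and for 3.46% of all genes in the table. GAS letters were found for 5 of the 19 (26.3%), among them *Irf1* and *Igtp*, and for 8.13% of all genes. For the MHC class I list the shares were 2 of 10 and 1 of 10. A match is a description, and its absence says only that these letters are not in this window.

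Antigen presentation genes followed the interferon genes. *H2-K1*, a classical MHC class I heavy chain, was at 1771, 734, 1173 and 4690 CPM in pericytes of libraries 1 to 4, and *B2m*, the light chain of class I molecules, at 1485, 693, 1368 and 5927 CPM. Library 4 was the highest for both and library 2 the lowest. Reads of the H2 class I family can be split among near-identical copies. Donors were BALB/c or C57BL/6J mice, all reads were aligned to mm10, and the part of strain in the H2 levels was not tested. The peptide transporter *Tap1* was at 103, 24.4, 68.3 and 489 CPM and the immunoproteasome subunit *Psmb9* at 116, 17.4, 82.0 and 538 CPM. Of the 12 class I genes, 11 passed 2-fold in library 4, all but *H2-Q7*, and all 12 were highest there. Of all 9678 genes tested, 2.44% passed 2-fold in library 4 and 2307 were highest there. In single cells the class I list ranged from 13153 to 40178 CPM in library 4, with medians of 4629, 2412, 4156 and 25836 CPM in libraries 1 to 4. All 7 MHC class II genes were also at least 2-fold highest in library 4, against 2.44% of all genes tested. *Cd74*, the invariant chain, was at 83.7, 6.46, 38.4 and 814 CPM in libraries 1 to 4. Macrophages, at 25.4% of library 4, had *Cd74* at 16516 CPM there and the class II list at 36535 CPM. The class II list was at 1852 CPM in the 22 pericytes and 833 CPM in the 8 without *Cdh5* and *Pecam1*, and the macrophage list was at 345 CPM in the 22 pericytes and 21857 CPM in macrophages. The macrophage list was led by *Lyz2*, with *Ptprc* at 0 by the rule, and its part in the class II level was not tested. *Aif1*, of the same list, was highest in library 4, at 3.16, 0.995, 4.49 and 33.5 CPM. T and NK cell markers also moved with library 4, where *Nkg7* and *Gzma* were at least 2-fold highest, at 21.7 and 23.6 CPM. Their list was at 16.1, 6.47, 18.1 and 67.0 CPM in pericytes of libraries 1 to 4, with a UMI of it in 18 of 22 pericytes of library 4 against 56 of 420, 19 of 305 and 91 of 450 in libraries 1 to 3. Library 4 pericytes were the deepest, and the part of T and NK cell RNA was not tested.

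The interferon genes were also high in the other classes of library 4. In library 4 the interferon list was at 23201 CPM in pericytes, 27669 CPM in endothelial cells, 16695 CPM in smooth muscle cells, 12496 CPM in fibroblasts and 11889 CPM in macrophages. *Cxcl9* was at 8023 CPM in pericytes, 9459 CPM in the 8 pericytes without *Cdh5* and *Pecam1*, 10219 CPM in endothelial cells and 1358 CPM in the 12 smooth muscle cells. In libraries 1 and 3 the same split gave another picture, since *Cxcl9* was at 14.8 and 1.15 CPM in pericytes without *Cdh5* and *Pecam1*, against 236 and 117 CPM in all pericytes and 441 and 189 CPM in endothelial cells. *Iigp1*, an interferon-inducible GTPase, moved likewise, at 1056 CPM in all library 1 pericytes and 266 CPM without *Cdh5* and *Pecam1*. In library 4 it was at 2135 and 2395 CPM. *Ubd* in library 4 was at 794 CPM in all pericytes, 347 CPM in the 8 without *Cdh5* and *Pecam1* and 1710 CPM in endothelial cells.

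Several pericyte marker genes outside the rule were lowest in library 4. *Vtn* was at 636, 211, 506 and 86.7 CPM in libraries 1 to 4 and *P2ry14*, the UDP-glucose receptor, at 122, 35.1, 78.8 and 5.91 CPM, and the 22 list genes outside the rule took 7090, 5289, 7010 and 3404 CPM. In the cells without *Cdh5* and *Pecam1* these genes took 14681, 11480, 16283 and 6387 CPM. *Kcnj8*, *Abcc9* and *Rgs5* chose the cells by a fixed number of UMIs, which admits lower CPM in deeper cells, and the pericytes of library 4 were the deepest, so their lower levels there are no finding. The part of depth in the other genes was not tested. *Gja4*, which encodes the arteriolar connexin 37, was the gene of the list at least 2-fold highest there, at 197, 214, 238 and 733 CPM, and *Angpt2*, an angiopoietin of remodeling vessels, was at 27.4, 51.0, 33.7 and 150 CPM. *Angpt2* was also at least 2-fold highest in library 4, as were the contractile genes *Acta2*, at 510 CPM, and *Tagln*. The contractile levels rested on few cells. A single pericyte held 58.7% of the *Acta2* UMIs and 41.4% of the contractile list in library 4, and 12 of its 22 pericytes had no *Acta2* UMI, so its median cell was at 0. *Vcam1* was at 102, 51.5, 91.8 and 563 CPM and *Il6* at 175, 342, 286 and 652 CPM. In the 8 pericytes without *Cdh5* and *Pecam1*, *Vcam1* was at 182 CPM, whereas endothelial cells of library 4 had 1301 CPM.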

How the data were processed

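The authors counted UMIs per gene and cell with Cell Ranger 3.0.0 on mm10 with Ensembl 92 and deposited the raw counts of the 4 grafts as a single merged matrix of 30905 genes. Cells over 200 genes and under 20% mitochondrial UMIs, the limits the study states, were kept and the 13 mitochondrial genes were removed. UMIs were summed over pericytes and over 4 comparison classes cut by marker counts: smooth muscle cells; endothelial cells, also without *Kcnj8*, *Abcc9*, *Myh11*, *Ptprc* and *Pdgfra*; fibroblasts (*Pdgfra*, *Col1a1* and at least 3 UMIs of *Dcn*, without *Kcnj8*, *Myh11*, *Ptprc*, *Pecam1* and *Cdh5*); and macrophages, also without *Kcnj8*, *Cdh5* and *Pdgfra*. Folds have 10 CPM added to both values. A class cut by counts is a range of cells, and genes that cut it are no finding. Doublets were marked by simulation, 5% per library among 50 neighbours, and were not removed from the main values. The members, 22 gene lists and named genes were chosen with earlier results of these data known, and 264 of 266 list symbols matched. Beyond the lists, named genes are the 20 with the largest fold of pericytes over the highest other class, the 15 with the largest fold from smooth muscle cells in each direction, the 8 per library with the largest fold over the next library (all at 50 CPM or more), the 12 with the largest variance to mean ratio at 2000 UMIs and, chosen after their values were seen, genes among the 20 with the largest fold from smooth muscle cells in cells without *Cdh5* and *Pecam1*. UMI counts of 3′ ends do not depend on transcript length, but capture differs between genes, so levels are best compared between cells. The sums and folds were tested on simulated data. Some genes within these rules are not reported here. Promoters are RefSeq on GRCm38.p6. Software was Python 3.11.15 with scipy 1.17.1, pandas 2.3.3, numpy 2.4.6, scikit-learn 1.9.0 and matplotlib 3.10.9.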

Additional observations from a re-analysis of the deposited data

How the results depend on the processing

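No paired analysis was possible because, for the grafts, the replicate numbers of the labels could not be tied to the libraries. Pericytes and smooth muscle cells do share each of the 4 libraries, but no test of them, paired by library or not, was run, and their levels within libraries are given as values. Of 129 alternative values, 55 stayed within the counting interval or 1.5 times the main count and 74 moved, and the cause was not tested. The share of pericytes among kept cells was 2.84% of cells over 500 genes, 2.85% with *Rgs5* from 1 UMI, 2.07% with *Myh11* at 0, 0.984% without *Cdh5* and *Pecam1*, 2.45% with doublet-marked cells left out and 2.15% to 3.53% without 1 library at a time. The contractile list was at 1430 CPM with *Rgs5* from 1 UMI, 1504 from 6 UMIs, 1337 with *Myh11* at 0, 2743 without *Cdh5* and *Pecam1*, 1577 without doublet marks, 1614 as a mean of libraries, 1980 thinned to 2000 UMIs and 1461 to 1504 leaving out libraries. The basement membrane list was at 11458, 11446 and 11437 CPM under the 3 gene limits, 10889 without doublet marks, 11078 as a mean of libraries, 10544 thinned and 9746 to 12434 leaving out libraries. The interferon list was at 3936 CPM with *Rgs5* from 1 UMI, 4269 with *Myh11* at 0, 2786 without *Cdh5* and *Pecam1*, 4259 without doublet marks, 8338 as a mean of libraries (each library weighing the same, so library 4 counts more), 3263 thinned and 3357 to 5306 leaving out libraries. The MHC class I list under the same settings was at 5727, 6074, 4176, 5887, 10267 and 4934 CPM and at 5066 to 6841. The endothelial list was at 20388, 21638 and 20603 CPM under the 3 gene limits, 2990 without *Cdh5* and *Pecam1*, 20210 without doublet marks, 19697 as a mean of libraries, 15907 thinned and 18738 to 22877 leaving out libraries. Genes at least 2-fold higher than in smooth muscle cells numbered 487 for pericytes without *Cdh5* and *Pecam1*, 665 with both classes so limited (chosen after seeing the data), 605 with 1 CPM added, 86 with 50 CPM added and 309 to 356 leaving out libraries. Lower genes numbered 154 with 50 CPM added and 338 to 424 leaving out libraries. Genes highest in libraries 1 to 4 numbered 123, 133, 91 and 387 in cells without *Cdh5* and *Pecam1*, 87, 127 and 109 with 1 CPM added (libraries 1 to 3), 15, 22, 13 and 107 with 50 CPM added, and 38 in library 3 with *Rgs5* from 1 UMI. Library 4 rests on 22 pericytes, where 3 UMIs equal 5.91 CPM.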
